A study of Mus musculus with 6 samples.

Results

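The MYC, MAX and MXD network was followed in libraries labelled as cells of 4T1, a mammary carcinoma line. It was read through 9 genes, Myc, Max, Mxd1, Mxd3, Mxd4, Mxi1, Mnt, Mga and Mlx. They were chosen by name, as the listed genes that occur in the table of 13912 genes, and all 9 were found. All 9 are protein-coding genes. RNA was sequenced in 6 libraries. The tumour group (n = 3) was 4T1-Luc2-RFP cells taken by fluorescence-activated cell sorting from mammary gland tumours that grew after injection into the milk ducts, which the labels call MIND tumours. The cultured group (n = 3) was the 4T1-Luc2-RFP line kept in culture and never injected. Both groups carried the luciferase Luc2 and a red fluorescent protein (RFP), and both are given as BALB/c, the strain of mouse from which this single carcinoma line comes. The sorted tumour libraries also held markers of host cells, given below. The sources used here do not give the sorting gate, the age of the mice or the time since injection. Nor do they tie a library to an animal or a dish, so the spread behind each p-value may be partly or wholly technical.

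MYC is a transcription factor that binds DNA as a pair with MAX, chiefly at the E-box CACGTG, and raises genes of growth, nucleotide synthesis and ribosome production. The MXD proteins (MXI1 is also called MXD2), MNT and MGA compete with MYC for MAX and bring repressor complexes to such sites, and Mxd1 and Mxd4 are known to come on as cells leave the cycle and differentiate. MLX is a partner related to MAX that pairs with some MXD proteins, with MNT and with the glucose-responsive MONDO proteins. MYC messenger RNA and protein are both short-lived, and high MYC is common in mammary carcinoma.

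Of the 9 genes, 3 were higher in tumour libraries, the repressors Mxd1, Mxd4 and Mxi1, and 1 was lower, Myc. The other 5 (Max, Mxd3, Mnt, Mga and Mlx) did not pass the test. A gene is called when its adjusted p was at most 0.05 in limma, with Benjamini-Hochberg adjustment over all 13912 genes. Changes are differences of mean log2 CPM (reads scaled to the total of the library), tumour minus cultured. In bulk libraries such as these, more cells of a type and more RNA per cell cannot be told apart. The 4 calls among 9 genes stand beside a share of 48.2% of all genes called in either direction, with 29.5% called higher and 18.8% called lower. The 3 libraries of a group did not overlap those of the other group for Myc, Mxd1 and Mxd4, which is 3 of 9 genes, beside 59.8% of all genes. The shares for the network are therefore near or below those of the table as a whole. The median change was 0.54 over the 9 genes and 0.08 over all genes.

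**Figure D1:**
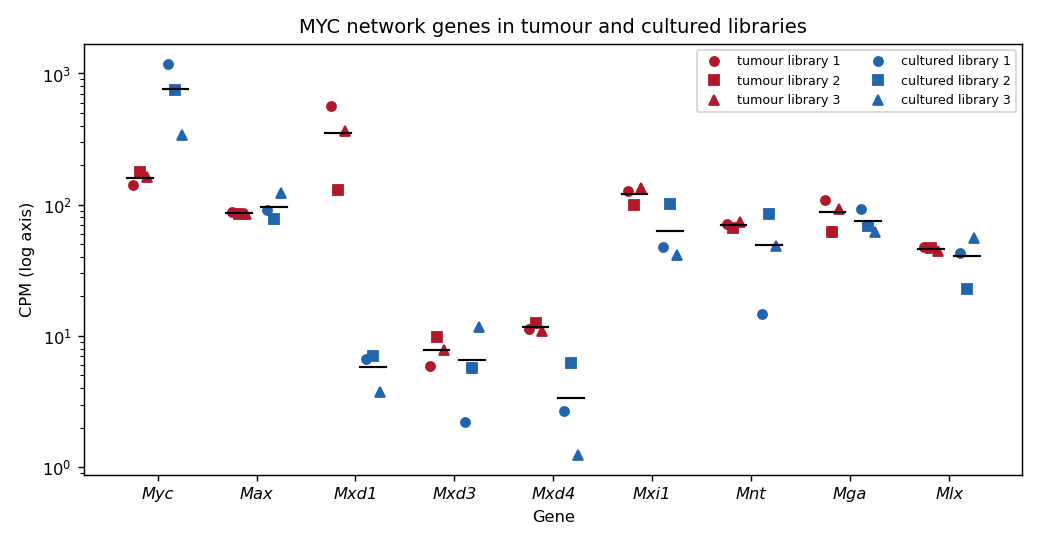
CPM of each of the 9 network genes in every library, on a log axis, tumour libraries left of cultured libraries, with a black bar at the group mean. Myc lies lower and Mxd1 and Mxd4 lie higher in all 3 tumour libraries than in any cultured library, and the other 6 genes overlap.

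The E-box is shown first because both arms of the network read it. The 6 letters CACGTG, which read the same on both strands, were searched in RefSeq promoter windows on build GRCm38.p6 that run from 250 bases before to 50 bases after the start of a gene. They were found in 4 of the 8 network genes that have such a window, and in 1215 of the 10510 genes of the table with a window, which is 11.6%. Each site is printed 5′ to 3′ on the strand of its gene, with the E-box in capitals and 10 bases on each side. The site of Max is at chr12:76962236-76962261 on the minus strand, with its E-box at position -3 from the start of the gene. The sites of Mlx (chr11:101087240-101087265, plus strand), Mnt (chr11:74830791-74830816, plus strand) and Mxd4 (chr5:34187914-34187939, minus strand) lie further upstream, that of Mlx at -40 and that of Mxd4 at -219. For Max, the end of the window was not found in a GENCODE transcript of the gene.
Max: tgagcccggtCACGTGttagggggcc
Mlx: tgggttggatCACGTGactgagcctc
Mnt: ccacccaagcCACGTGtgcgcgcgcg
Mxd4: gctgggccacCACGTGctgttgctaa
Of these 4 genes, Mxd4 was called and the other 3 were not. Mxd1, Mxd3, Mxi1 and Mga had no CACGTG in their windows, which says only that these letters are not in those 300 bases.

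Myc, the activator of the network, lies on chromosome 15 (61985391 to 61990374, plus strand, GRCm38, GENCODE M21). It had 141, 177.5 and 162 CPM in tumour libraries 1, 2 and 3, against 1189.7, 753.7 and 337.7 CPM in cultured libraries 1, 2 and 3. The tumour libraries lie close together, and the cultured libraries spread widely, with library 3 the lowest and still above every tumour library. The mean was 160.2 ± 18.3 CPM in tumour and 760.4 ± 426.1 CPM in cultured libraries (SD, n = 3 each). On the log2 scale Myc was lower in tumour libraries by a change of -2.07 (SE 0.41, 95% interval -3.04 to -1.11, limma adjusted p = 0.00446). Mycl, a paralogue of Myc with the same DNA-binding domain type, had 1.33, 2.21 and 1.77 CPM in tumour libraries, against 8.56, 16.5 and 5.17 CPM in cultured libraries. Its change was -2.37 (SE 0.45, limma adjusted p = 0.00348). Mycn, the third paralogue, was not among the genes of the table.

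Max, the shared partner of activators and repressors, lies on chromosome 12 (76937269 to 76962201, minus strand). It had 88.2, 84.5 and 85.6 CPM in tumour libraries, against 90.9, 77.2 and 122.4 CPM in cultured libraries. The tumour values fall inside the cultured range. The change was -0.14, with a 95% interval of -0.58 to 0.29, and did not pass the test (limma adjusted p = 0.561). Its sign turned positive when libraries were scaled to the epithelial markers (0.15) and without cultured library 3 (0.04).

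Mxd1, the founding MXD repressor, first named MAD, had the largest change of the 9 genes. It lies on chromosome 6 (86647042 to 86669161, minus strand). It had 563.8, 128.9 and 363.9 CPM in tumour libraries, against 6.64, 7.05 and 3.76 CPM in cultured libraries. Every tumour library stood far above every cultured library, and tumour library 2 was the lowest of its group. The means were 352.2 ± 217.7 CPM in tumour and 5.82 ± 1.79 CPM in cultured libraries (SD, n = 3 each). The change was 5.73 (SE 0.52, 95% interval 4.51 to 6.94, limma adjusted p = 6.39e-05).

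The promoter window of Mxd1 is printed because it belongs to the gene with the largest change. It lies at chr6:86669110-86669409 on the minus strand of GRCm38.p6 and is printed 5′ to 3′ on the strand of the gene. It holds no E-box. Capitals mark CCAAT, a motif bound by NF-Y, of which it has 4, a motif chosen after the window had been read.
Mxd1: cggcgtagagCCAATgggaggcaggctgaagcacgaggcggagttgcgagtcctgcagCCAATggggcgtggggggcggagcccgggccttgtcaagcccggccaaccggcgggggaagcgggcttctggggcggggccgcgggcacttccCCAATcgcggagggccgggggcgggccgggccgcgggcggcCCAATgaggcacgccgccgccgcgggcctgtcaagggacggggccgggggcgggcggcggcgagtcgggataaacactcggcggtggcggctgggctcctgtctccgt
The letters CCAAT, on either strand, were in 4978 of 13362 windows of genes in the table, which is 37.3%. At least 4 were in 211 windows, which is 1.58%. These matches describe the letters and say nothing of binding.

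Among the tumour libraries Mxd1 had the same order as the median of the neutrophil markers. In the blood, Mxd1 is known to be abundant in neutrophils. S100a9, a calcium-binding protein of neutrophils, had 1492.7, 113.1 and 647.4 CPM in tumour libraries 1, 2 and 3, and at most 10 reads in a cultured library. The median log2 CPM of the 10 neutrophil markers in the table was 7.17, 3.77 and 6.33 in tumour libraries, against -4.09, -6.50 and -5.33 in cultured libraries. Library 2 was the lowest tumour library for both this median and Mxd1, and library 1 the highest. The summed level of these markers was 1410.4 to 4261.9 CPM in tumour and 85.6 to 100.5 CPM in cultured libraries, where nearly all of it was Mmp9, a matrix protease. All 10 were called higher. Of the 10, Ngp and Retnlg had 0 reads in all 3 cultured libraries. Of the listed 12, Ly6g and Mpo were not among the genes of the table. In tumour library 2 both Mxd1, at 128.9 CPM, and the neutrophil median, at 3.77, were above every cultured library. The order of the tumour libraries was not particular to neutrophil markers. The macrophage marker Cd14 had it too (1681.4, 642.1 and 1166.0 CPM), as did Mga and the glucose transporter Slc2a1. The macrophage marker Lyz2 was instead highest in tumour library 3, and the neutrophil marker Mmp9 was lowest there. The part of neutrophils and other host cells in the change of Mxd1 was not tested. Leaving out tumour library 2 gave Mxd1 a change of 6.33, and leaving out library 1 of that group gave 5.27.

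**Figure D2:**
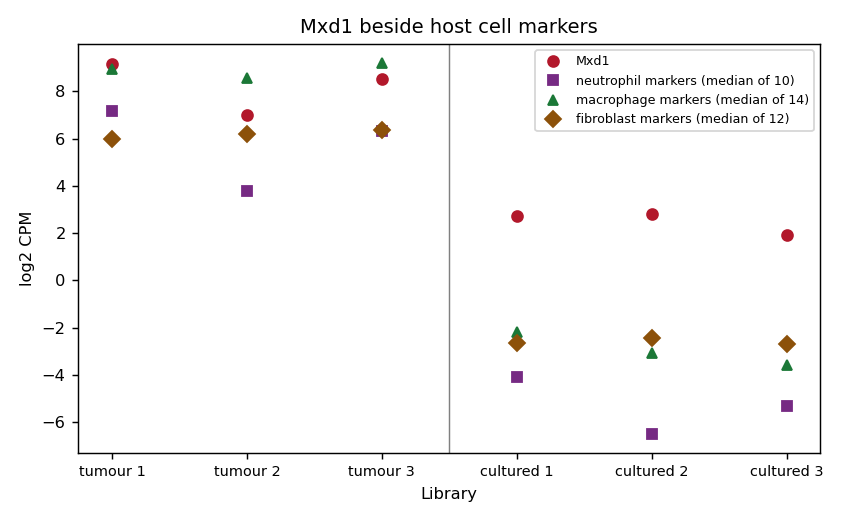
log2 CPM of Mxd1 and the median log2 CPM of the neutrophil, macrophage and fibroblast marker lists in each library, tumour libraries left of cultured libraries. All 4 are higher in every tumour library than in any cultured library, and tumour library 2 has the lowest Mxd1, neutrophil and macrophage values of the tumour group but not the lowest fibroblast median.

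Markers of other host cells were higher in the sorted tumour libraries as well. All 14 macrophage markers were called higher, with summed levels of 6852.6 to 10357.9 CPM in tumour and 27.9 to 38.5 CPM in cultured libraries. Their medians were 8.93, 8.54 and 9.21 on the log2 scale in tumour libraries 1, 2 and 3. The macrophage markers with the highest tumour means were Lyz2, a lysozyme, and Cd14, a receptor for bacterial lipopolysaccharide. All 12 fibroblast markers were called higher, led by the collagens Col3a1 and Col1a1, with summed levels of 6713.4 to 8613.9 CPM in tumour and 23.9 to 51.7 CPM in cultured libraries. Of 10 endothelial markers 9 were called higher, with Eng and Pecam1 the most abundant. Of 12 lymphocyte markers 4 were in the table, and these 4, among them Cd4 and Cd2, were called higher. Of 13 epithelial markers of the line 1 was called higher, 6 lower (46.2%, beside 18.8% of all genes) and 6 were not called. Their median change was -0.53, with a range of -1.49 to 2.13. Those with the highest tumour means, the keratins Krt18 and Krt8, were abundant in both groups and were not called. The log2 means of these keratins were 10.04 and 9.74 in tumour libraries, against 9.77 and 8.89 in cultured libraries. The part of these host cells in the changes of the other network genes and their targets was not tested.

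Mxd4, an MXD repressor of the same family, lies on chromosome 5 (34173883 to 34187720, minus strand). It had 11.3, 12.6 and 10.9 CPM in tumour libraries, against 2.70, 6.23 and 1.23 CPM in cultured libraries, where the lowest value was 43 reads. The groups do not overlap, and the tumour libraries lie within a narrow band. Mxd4 was higher in tumour libraries by 2.07 (SE 0.54, 95% interval 0.83 to 3.32, limma adjusted p = 0.0145). Without tumour library 2 the change was 2.01 and the call was lost (limma adjusted p = 0.0541). Under quantile normalization it was 0.96 (limma adjusted p = 0.0486), and it was 1.499 when cultured library 3 was left out and 2.66 when cultured library 2 was (limma adjusted p = 0.0107 and 0.00166). Antisense exons of Gm42846 cover 6.1% of its exon bases.

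Mxi1, the repressor also called MXD2, lies on chromosome 19 (53310518 to 53375810, plus strand). It had 128.2, 99.9 and 133.3 CPM in tumour libraries, against 47.2, 100.5 and 41.2 CPM in cultured libraries. The groups touch, because cultured library 2 was slightly above tumour library 2. Mxi1 was higher in tumour libraries by 1.04 (SE 0.33, 95% interval 0.28 to 1.81, limma adjusted p = 0.0328). This call was the least stable of the 4 and was kept in 7 of 14 alternatives. It was lost when each library was centred on its median (0.82, limma adjusted p = 0.0652), when the variance trend was left out (limma adjusted p = 0.0567), and without tumour library 1, 2 or 3 or cultured library 1 or 3 (changes of 0.79 to 1.17).

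Mxd3, an MXD repressor that unlike the others is known to be expressed in dividing cells, lies on chromosome 13 (55325168 to 55329823, minus strand). It had 5.91, 9.89 and 7.83 CPM in tumour libraries, against 2.23, 5.65 and 11.7 CPM in cultured libraries. Cultured libraries held both the lowest and the highest value. The change was 0.54, with a 95% interval of -0.77 to 1.86, and was not called (limma adjusted p = 0.461). Under quantile normalization its sign was negative, at -0.58. Exons of Prelid1 on the other strand cover 4.4% of its exon bases.

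Mnt, the broadly expressed repressor that competes with MYC in dividing and resting cells, lies on chromosome 11 (74830920 to 74845725, plus strand). It had 71.7, 66.4 and 73.4 CPM in tumour libraries, against 14.7, 85.4 and 48.3 CPM in cultured libraries. The tumour values fall inside the wide cultured range, which runs between libraries 1 and 2. The change was 0.84, with a 95% interval of -0.46 to 2.14, and was not called (limma adjusted p = 0.249). It was called when libraries were weighted by their spread (1.37, limma adjusted p = 0.0208) and without cultured library 2 (1.40, limma adjusted p = 0.0482). Without cultured library 1, the lowest, the change was 0.13 (limma adjusted p = 0.702), so its size rests on single cultured libraries.

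Mga, a large protein that pairs with MAX and belongs to a Polycomb-type repressor complex, lies on chromosome 2 (119897228 to 119969581, plus strand). It had 109.0, 61.8 and 93.3 CPM in tumour libraries, against 93.2, 69.3 and 61.6 CPM in cultured libraries. The groups overlap, with tumour library 2 among the lowest values. The change was 0.22, with a 95% interval of -0.37 to 0.81, and was not called (limma adjusted p = 0.501). With libraries centred on their medians it was close to 0 and negative, at -0.0042.

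Mlx lies on chromosome 11 as well (101087277 to 101092207, plus strand). It had 47.2, 46.9 and 44.7 CPM in tumour libraries, against 42.5, 22.9 and 56.2 CPM in cultured libraries. The tumour values fall inside the cultured range. The change was 0.28 (SE 0.31) and was not called (limma adjusted p = 0.478). Exons of Psmc3ip on the other strand cover 19.3% of its exon bases, and whether counting used the strand is not given in the sources used here, so reads of the pair may be mixed. Mlxip, a MONDO protein that pairs with MLX, had a change of 0.05 and was not called (limma adjusted p = 0.83), and Mlxipl was not among the genes of the table.

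The spread between libraries of a group was wider in culture for 7 of the 9 genes. On the log2 scale the SD of Myc was 0.17 in tumour and 0.92 in cultured libraries, and that of Mnt was 0.08 in tumour and 1.29 in cultured libraries. The exceptions were Mxd1, with 1.09 in tumour and 0.50 in cultured libraries, and Mga, with 0.42 in tumour and 0.31 in cultured libraries.

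**Figure D3:**
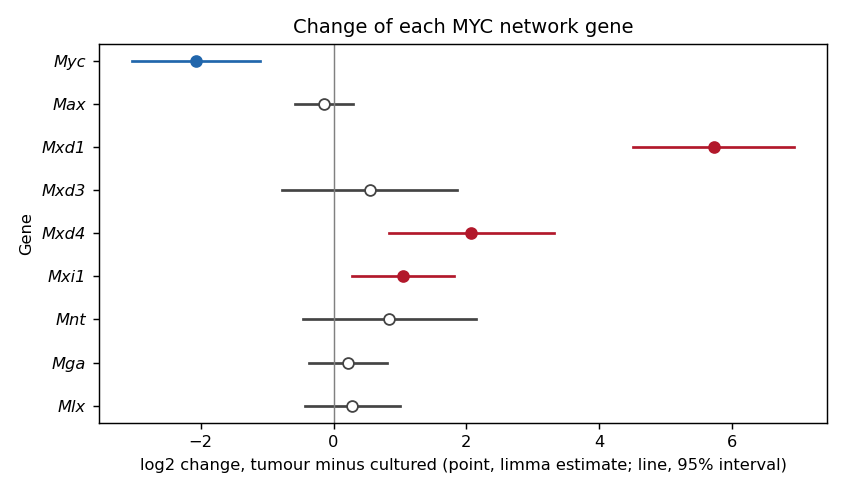
Change of each network gene on the log2 scale, tumour minus cultured, with its 95% interval from limma. Filled points are genes called at an adjusted p of 0.05 (Mxd1, Mxd4 and Mxi1 above 0, Myc below 0) and open points are genes not called, whose intervals all cross 0.

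Levels of different genes were compared per kilobase of merged GENCODE exons, in CPM per kb. In tumour libraries the order was Myc (58.9 ± 6.74), Mxd1 (49.8 ± 30.8), Max (23.9 ± 0.526), Mlx (23.2 ± 0.676), Mxi1 (17.7 ± 2.63), Mnt (15.2 ± 0.795), Mga (5.74 ± 1.57), Mxd3 (3.33 ± 0.840) and Mxd4 (1.37 ± 0.105 CPM per kb, SD, n = 3 each). The tumour ranges of neighbours overlapped except between Mlx and Mxi1, Mnt and Mga, and Mxd3 and Mxd4. In cultured libraries the order was Myc (279.9 ± 156.8), Max (26.9 ± 6.43), Mlx (20.3 ± 8.36), Mnt (10.7 ± 7.64), Mxi1 (9.23 ± 4.78), Mga (4.87 ± 1.08), Mxd3 (2.75 ± 2.02), Mxd1 (0.822 ± 0.253) and Mxd4 (0.399 ± 0.303 CPM per kb, SD, n = 3 each). Only Myc stood clear of its neighbour among cultured ranges. Mxd1 held the second place in tumour libraries and the second lowest in culture. Merged exons can be longer than the transcript in use, so these orders are approximate.

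Set against each other in the same library, Myc was below or near the summed repressors in the sorted tumour libraries, which also held the host cell markers given above, and above them in culture. Myc stood at 51.9, 65.3 and 59.6 CPM per kb in tumour libraries, against 437.9, 277.4 and 124.3 CPM per kb in cultured libraries. The 6 repressors Mxd1, Mxd3, Mxd4, Mxi1, Mnt and Mga summed to 124.9, 56.9 and 97.5 CPM per kb in tumour libraries, against 18.4, 41.8 and 26.1 CPM per kb in cultured libraries. The ratio of Myc to this sum was 0.415, 1.15 and 0.611 in tumour libraries, against 23.8, 6.63 and 4.76 in cultured libraries. The groups do not overlap in this ratio, and tumour library 2 is the only tumour library above 1. Mxd1 alone made up 63.8%, 32.0% and 52.8% of the repressor sum in tumour libraries, against 5.11%, 2.38% and 2.04% in cultured libraries. Since Mxd1 had the order of the neutrophil median in tumour libraries, the ratio was also formed without it, an alternative chosen after seeing the data. Myc over the other 5 repressors was then 1.15, 1.69 and 1.29 in tumour libraries, against 25.1, 6.80 and 4.86 in cultured libraries, and the groups again do not overlap. Leaving out Mxd1 does not remove host cell RNA, and the part of host cells in either ratio was not tested.

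**Figure D4:**
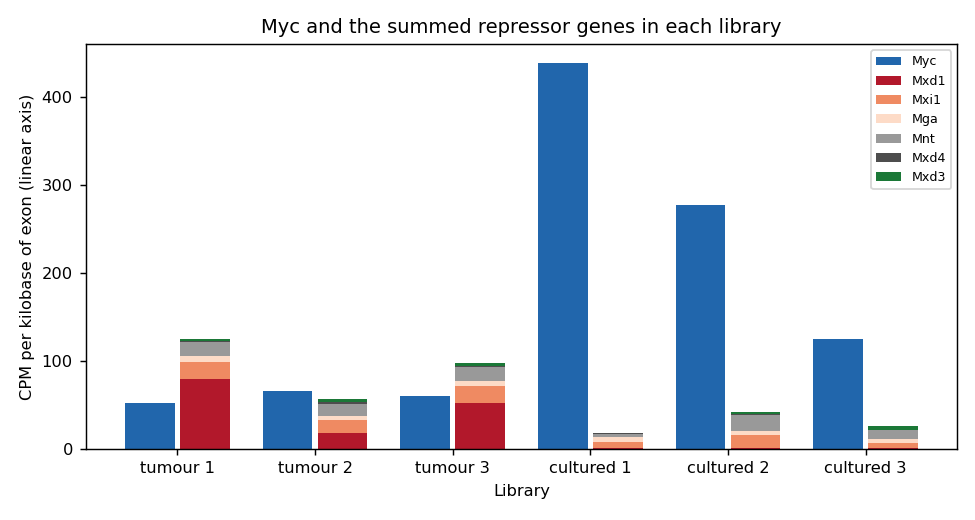
Myc (single bar) beside the 6 repressors stacked by gene in each library, in CPM per kb of exon on a linear axis that starts at 0, tumour libraries left of cultured libraries. Myc is above the repressor sum in the 3 cultured libraries and in tumour library 2, and below it in tumour libraries 1 and 3.

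The same balance on the log2 scale, Myc minus the mean of the 6 repressors, was 1.28, 2.04 and 1.55 in tumour libraries, against 6.66, 5.03 and 4.62 in cultured libraries. The difference of group means was -3.82. It is a description with no test, since its genes were chosen with results known. The 6 repressors had higher means in tumour libraries, with a median change of 0.94, and 3 of the 6 were called higher, beside 29.5% of all genes, but the sign of Mga turned with libraries centred on their medians and that of Mxd3 under quantile normalization. Over all genes 53.4% had a change above 0.

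The genes that MYC is known to activate were mostly lower in tumour libraries. Of 54 such targets, 34 were called lower (63.0%), 2 higher (3.70%) and 18 were not called, with a median change of -1.03, beside 18.8% called lower and a median of 0.08 over all genes. The count called lower fell to 21 when libraries were scaled to the epithelial markers, where the count over all genes fell from 2612 to 1285. It rose to 42 with libraries centred on their medians and to 44 after quantile normalization, beside 3833 and 5513 of all genes. Of 21 nucleolar and ribosome biogenesis genes 19 were called lower and 0 higher, with a median of -1.27. Wdr43, a factor of the small ribosomal subunit, had 111.5, 132.3 and 115.1 CPM in tumour libraries, against 509.8, 431.9 and 411.4 CPM in cultured libraries (change -1.91, limma adjusted p = 3.07e-05). Nop56, a core protein of box C/D particles that guide the methylation of ribosomal RNA, changed by -1.79 (limma adjusted p = 3.31e-05). Polr1b, a subunit of RNA polymerase I, changed by -1.76, and Nolc1, a nucleolar chaperone of such particles, by -1.75.

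Of 21 metabolic targets 13 were called lower, 2 higher and 6 were not called, with a median of -1.16. Odc1, the first enzyme of polyamine synthesis and a classical MYC target, had 167.0, 198.4 and 196.9 CPM in tumour libraries, against 646.4, 751.2 and 785.9 CPM in cultured libraries (change -1.96, limma adjusted p = 3.26e-05). Slc7a5, a transporter of large neutral amino acids, also changed by -1.96, and Ppat, the first enzyme of purine synthesis, by -1.92. The glucose transporter Slc2a1 went the other way, with 841.1, 564.0 and 696.8 CPM in tumour libraries, against 127.0, 284.3 and 124.5 CPM in cultured libraries (change 2.07, limma adjusted p = 0.00162). The second metabolic target called higher was Hk2, a hexokinase, with a change of 1.43, named after its value was seen. Of 12 targets of the cell cycle and protein folding 2 were called lower (16.7%, below the 18.8% of all genes) and 10 were not called, with a median of -0.51. The 2 were Ccnd2, a D-type cyclin (change -1.81, limma adjusted p = 0.000576), and Hspd1, a mitochondrial chaperonin (change -1.10, limma adjusted p = 0.0085).

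**Figure D5:**
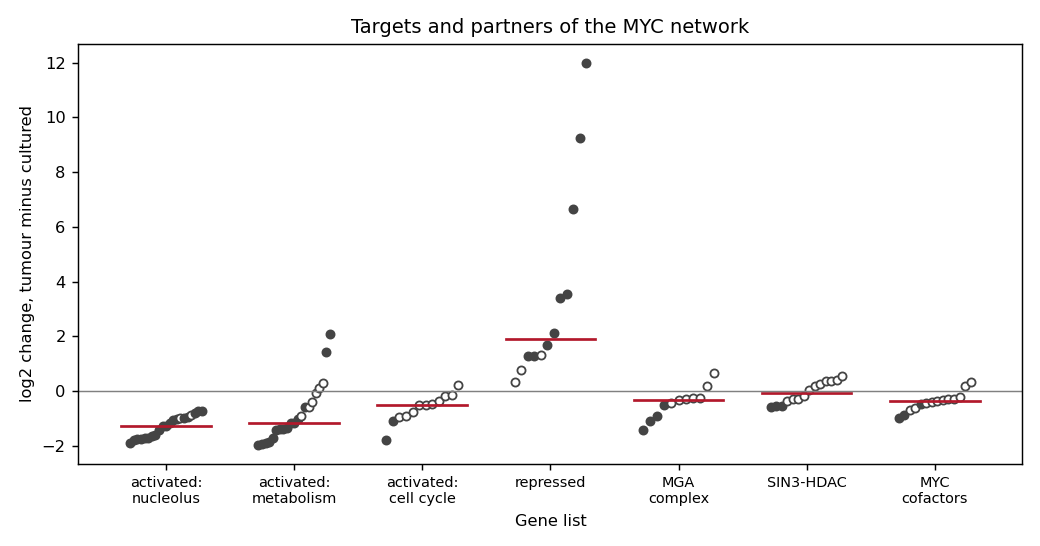
Change on the log2 scale, tumour minus cultured, of each gene of 3 lists that MYC activates, of the genes it represses and of 3 partner lists, with filled points for called genes, open points for genes not called and a red line at the median of each list. The nucleolar list lies wholly below 0, and the list of genes that MYC represses lies wholly above 0, on the deposited scale.

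Genes that MYC is known to repress were on the opposite side. Of 12 such genes 9 were called higher (75.0%), 0 lower and 3 were not called, with a median of 1.90, beside 29.5% called higher and a median of 0.08 over all genes. Cdkn1a, the cyclin-dependent kinase inhibitor p21, named after its value was seen, had 390.5, 202.6 and 308.1 CPM in tumour libraries, against 18.7, 51.0 and 22.2 CPM in cultured libraries (change 3.39, limma adjusted p = 0.000287). Cebpa, a transcription factor of fat, liver and myeloid cells, had 73.5 ± 17.4 CPM in tumour libraries (SD, n = 3) and 1 read in all cultured libraries, a ratio of 8979 with a 95% counting interval of 1611 to 354700. Gas1, a growth-arrest gene, had 10.8 ± 2.40 CPM in tumour libraries (SD, n = 3) and also 1 read in all cultured libraries, a ratio of 1325 with a counting interval of 237.4 to 52375. Cdkn2b, the inhibitor p15, had 1.24 ± 0.275 CPM in tumour libraries (SD, n = 3) and 0 reads in culture, which made it at least 51.0-fold higher against a floor of 3 reads over the cultured group. Cdkn1c, another inhibitor of this kind, had a change of 3.55 (limma adjusted p = 0.00265) on at most 65 reads in a library. These intervals and the floor cover counting error only.

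E-box sites of 4 targets called lower are shown as examples of where the letters lie, and were chosen after their values were seen. Wdr43 has its E-box at position 18 within the transcript (chr17:71616222-71616247, plus strand), and Nop2, a methyltransferase of ribosomal RNA, at -60 (chr6:125131813-125131838, plus strand). Hspd1 has it at -80 (chr1:55088308-55088333, minus strand), and Nme1, a nucleoside diphosphate kinase, at -18 (chr11:93968275-93968300, minus strand). A further window of Nme1 has its own CACGTG at -29 (chr11:93968039-93968064), not printed here, and a further window of Hspd1 has none. Capitals mark CACGTG. For Nop2 the end of the window was not found in a GENCODE transcript of the gene.
Wdr43: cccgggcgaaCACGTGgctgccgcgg
Nop2: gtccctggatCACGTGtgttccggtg
Hspd1: ccggctgggaCACGTGaaaaggccgc
Nme1: tgcggggaacCACGTGaggccgggga
Nop2 changed by -1.71 and Nme1 by -1.04. Of the 44 activated targets with a promoter window 11 had a CACGTG (25.0%), beside 11.6% of the genes of the table. Of these 11 targets 6 were called lower, with a median change of -0.72 over the 11. Of the 33 targets without the letters 20 were called lower, with a median change of -1.07. Cdk4, a kinase of the cell cycle, had 4 of them and was not called (change -0.20).

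Within culture the order of Myc was not the order of the median of its nucleolar targets. Cultured library 3 had the lowest Myc of the group (337.7 CPM), and the highest median log2 level of the nucleolar list, at 8.14 beside 7.45 in library 1 and 6.63 in library 2. Tumour libraries had nucleolar medians of 6.04, 6.32 and 5.87. Single targets differed in culture. Wdr43 and Ccnd2 had the order of Myc, while Nop56, Polr1b, Nolc1, Odc1, Ppat and Hspd1 were highest in cultured library 3. Slc7a5 and Slc2a1 were highest in cultured library 2 and lowest in cultured library 3. Cultured library 3 also had the highest Mxd3 and the highest median of 10 proliferation markers (7.30 beside 6.61 and 6.84), and tumour libraries had 5.82, 6.25 and 6.03. Of these proliferation markers 9 were called lower (90.0%, beside 18.8% of all genes) and 0 higher, with a median change of -1.12, among them the mitotic cyclin Ccnb1 (-1.54), the topoisomerase Top2a (-1.31) and the mitotic kinases Plk1 (-1.31) and Aurkb (-1.19). The part of proliferation in the changes of Myc targets was not tested.

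Partners of the network had list medians nearer to 0 than its targets. Of 14 cofactors of MYC 3 were called lower (21.4%) and 0 higher, with a median of -0.39, and the share called lower is near the 18.8% of all genes. These were Wdr5, which helps MYC to bind chromatin (-0.98, limma adjusted p = 0.00129), Ruvbl2, a helicase-like ATPase (-0.87, limma adjusted p = 0.00949), and Supt5, an elongation factor (-0.48, limma adjusted p = 0.0242). Of 14 corepressors used by MXD proteins, the SIN3-HDAC list of the plot of targets, 3 were called lower (21.4%) and 0 higher, with a median of -0.08, again near the share of all genes. These were the histone-binding proteins Rbbp7 (-0.57) and Rbbp4 (-0.54) and the histone deacetylase Hdac2 (-0.57). Of 11 genes of the MGA complex 4 were called lower (36.4%, beside 18.8% of all genes) and 0 higher, with a median of -0.34. L3mbtl2, a chromatin compaction factor of that complex, had 21.4, 21.5 and 17.4 CPM in tumour libraries, against 41.5, 47.7 and 77.7 CPM in cultured libraries (change -1.42, limma adjusted p = 0.00262). Pcgf6, its Polycomb ring finger subunit, changed by -1.11 (limma adjusted p = 0.000785), Tfdp1, the partner of E2F factors, by -0.92, and Yaf2 by -0.51.

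Of 17 genes that set how long MYC protein lasts, 7 were called lower (41.2%, beside 18.8% of all genes), 1 higher and 9 were not called, with a median of -0.34. The gene called higher was Pim1, a kinase known to phosphorylate and stabilise MYC, with 505.3, 204.9 and 395.0 CPM in tumour libraries, against 11.6, 43.0 and 20.2 CPM in cultured libraries (change 4.00, limma adjusted p = 0.000404). Tumour library 2 was the lowest tumour library for Pim1, as it was for Mxd1, the neutrophil median, Cd14, Mga and Slc2a1. The part of host cells in the change of Pim1 was not tested. Aurka, a mitotic kinase that can shield MYC proteins from degradation, had 26.9, 38.6 and 29.1 CPM in tumour libraries, against 104.5, 119.7 and 137.9 CPM in cultured libraries (change -1.95, limma adjusted p = 9.51e-05). C330027C09Rik, which RefSeq gives as a synonym of Cip2a, an inhibitor of the phosphatase that marks MYC for destruction, changed by -1.34 (limma adjusted p = 0.00305). Usp36, a nucleolar enzyme that removes ubiquitin from MYC, changed by -1.27 (limma adjusted p = 0.00295). RNA levels say nothing of the amount of MYC protein.

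The genes whose log2 levels followed Myc most closely over the 6 libraries were Ube2g2, a ubiquitin-conjugating enzyme (Pearson r = 0.9999), Pdcd2 (0.9993), Lins (0.9983), Pick1 (0.9975) and Gnpnat1 (0.9975), of 8137 genes with a mean log2 level of at least 4. These are descriptions over 6 libraries that share the same split into groups, and the 5 genes were picked as the highest. In Ube2g2 the tumour libraries were at 6.20, 6.36 and 6.28 on the log2 scale, against 7.90, 7.53 and 6.89 in cultured libraries, the same order of libraries as in Myc.

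Targets of the MONDO and MLX arm were uneven in culture. Txnip, which binds thioredoxin and restrains glucose uptake, had 151.9, 91.2 and 113.3 CPM in tumour libraries, against 148.0, 704.4 and 9.33 CPM in cultured libraries. Its change was 0.23 and was not called (limma adjusted p = 0.902). Arrdc4, a related arrestin-type protein, had 89.2, 42.1 and 56.9 CPM in tumour libraries, against 7.81, 44.9 and 0.718 CPM in cultured libraries (change 3.23, limma adjusted p = 0.0713). In both genes cultured library 2 was the highest and library 3 the lowest of its group, and Mlx had the reverse order there, with 22.9 CPM in library 2 and 56.2 CPM in library 3. The third target of this arm on the list, Pklr, was not among the genes of the table.

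The shift of all genes depended on how libraries were scaled. Of the 6711 genes called, 61.1% were higher in tumour libraries as deposited. That share was 48.1% of the calls with libraries centred on their medians and 35.2% after quantile normalization. It was 79.5% with the mean log2 level of the epithelial markers held equal across libraries. The median change of all genes was 0.08 as deposited and -0.15, -0.33 and 0.37 under these 3 scalings. Under the same 3 scalings Myc changed by -2.30, -2.23 and -1.78, and Mxd1 by 5.50, 5.21 and 6.02. Both stayed called in all 14 alternatives, in which Myc ranged over -2.57 to -1.66 and Mxd1 over 5.21 to 6.33.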

How the data were processed

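The authors deposited 1 table of log2 CPM values for 13912 genes. Per the submitters' processing notes, reads were aligned with HISAT to mm10, counted with HTSeq and processed with limma, with no versions given. The values have the form of limma's voom with a scaled total and 0.5 reads added. Solving this for reads gave whole numbers within 0.01 in 100% of values, with 35448588 to 41469090 reads per library, and no gene under 61 reads over the 6 libraries.

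The deposited log2 values were compared between 3 tumour and 3 cultured libraries with limma 3.58.1 in R 4.3.3, with a trended variance. Tests were two-sided, and p-values were adjusted by Benjamini-Hochberg over the table and called at 0.05. The fit was tested on simulated data. Count models were not run, because the deposited unit is log2. CPM are recovered reads over the deposited scaled total. Positions and exon lengths are from GENCODE M21 (GRCm38), which matched 96.3% of symbols, and promoters from RefSeq GRCm38.p6. For 56 of 74 windows used, the last 40 bases lay in a GENCODE transcript of the gene.

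The members and lists were chosen with earlier results of these data known. Named were all 9 members, up to 4 called genes with the largest change per list (otherwise the 2 most abundant), the 2 most abundant markers per cell type, the 5 genes most like Myc, and genes said to be chosen later or shown for an E-box. Alternatives were 3 other scalings, 2 filters on low values, no variance trend, library weights, voom weights, leaving out each library and other summaries of the repressors.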

Additional observations from a re-analysis of the deposited data

How the results depend on the processing

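No paired analysis was possible because the numbers in the labels are not shared between the groups. The number of genes called stayed within 1.5 times under every alternative (4631 to 8505), and the balance of Myc against the repressors between -4.42 and -3.02, with -4.23 to -3.20 when 1 library was left out. The number of network genes called was 4, and 2 to 5 when 1 library was left out, with 2 without tumour library 2. The 34 activated targets called lower stood beside 2612 of all genes. They became 21 when libraries were scaled to the epithelial markers, beside 1285 of all genes. With libraries centred on their medians they were 42, and after quantile normalization 44, beside 3833 and 5513 of all genes. When 1 library was left out they were 24 to 38. The cause of these shifts was not tested. Of 126 values recomputed for the 9 network genes 110 kept their direction and side of the threshold, 8 lost a call (7 of Mxi1 and 1 of Mxd4), 2 of Mnt gained a call, and 6 of genes not called changed sign. These were Mga at -0.0042 with libraries centred, Mxd3 at -0.58 under quantile normalization, Max at 0.15 when scaled to the epithelial markers, and Mxd3 (-0.0761 to 1.1162), Mlx (-0.0791 to 0.5670) and Max (-0.2922 to 0.0397) when 1 library was left out. The change of Mnt was 0.13 to 1.40 and that of Mxd4 1.499 to 2.66 when 1 library was left out, and Mxd4 was at 0.96 under quantile normalization.

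The network genes had at least 43 reads in each library. With 3 libraries a group, a gene not called is not shown to be equal between groups.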
